A study of Mus musculus with 12 samples.

Results

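Noncoding RNAs that take up a large part of a total RNA library were followed in cultured oligodendrocyte precursor cells (OPCs), from which the myelin-forming oligodendrocytes of the brain arise. The 7 genes Rn7s1, Rn7s2, Rn7sk, Rmrp, Rpph1, Malat1 and Neat1 were chosen by name, on their reads as a share of all reads in a library, out of 55535 annotated genes. All 7 passed the count filter that left 17918 genes for testing. Because the share of reads chose them, their levels are given as a description with no test, and only the differences between treatments were tested, on the whole table of genes. The description as abundant held for 6 of the 7, while Neat1 ranked 9358th of all genes by mean reads.

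Ribosome-depleted, strand-specific RNA-seq was performed on 3 groups of 4 labelled replicates, which came from different litters. Per the labels and the study's methods, Sox10GFP+ OPCs were obtained from pooled brains of pups at P4 to P6 that carried Sox10:Cre-RCE:LoxP(EGFP), in which a Sox10-driven Cre switches on EGFP across the oligodendrocyte lineage. Cells were isolated either by sorting for the reporter or on CD140a magnetic beads, and which replicate was isolated in which way is not given in the sources used here. All groups were grown with PDGFaa and bFGF. The Ctr group received no treatment, the Dexa group received 1 µM of the synthetic glucocorticoid dexamethasone for 48 h, and the IFNg group received 100 ng/ml of the cytokine IFN-γ for 48 h. The labels of all 3 groups also carry a mouse-model tag of EAE (experimental autoimmune encephalomyelitis), and the protocols in the labels describe no induction of disease in the pups.

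The 11 complete libraries held 19209063 to 52074652 reads in genes, and the table of Dexa replicate 3 listed 33.7% of the transcripts, so it entered no main fit. The treatments showed in their known targets, since of a list of 6 such genes 3 were called higher with IFN-γ and 3 with dexamethasone by both DESeq2 and edgeR. Fkbp5, a glucocorticoid target, had 1234 to 1770 normalized counts in Ctr and 3379 to 4651 in Dexa. Summed OPC markers (6 genes, none at 0) held 4908 to 8649 CPM (reads scaled to a common library total) in Ctr, 5778 to 8796 in Dexa and 3580 to 7342 in IFNg. None of the 6 was called in the main fit, where 0 had an unadjusted p under 0.05, but 5 had a negative fold change with IFN-γ. DESeq2 with the replicate number as a block called Pdgfra (-0.50 in the main fit), Cspg4 (-0.56) and Sox10 (-0.51) lower (blocked adjusted p = 0.000103, 2.27e-10 and 8.94e-10). That blocked fit called 29.2% of all genes with IFN-γ and 2.57% with dexamethasone, against 12.8% and 0.547% in the main fit. With dexamethasone the block called Cspg4 higher (0.49, adjusted p = 1.03e-08). The 5 astrocyte markers summed to 106 to 346, 180 to 422 and 161 to 329 CPM in Ctr, Dexa and IFNg, and Gfap of this list was called higher in IFNg (log2 fold change 3.82, DESeq2 adjusted p = 3.96e-09). With the block, Aldh1l1 (0.55) was also called higher and Aqp4 (-1.02) and Gja1 (-0.35) lower with IFN-γ (adjusted p = 4.78e-06, 5.23e-05 and 0.000275), and Gfap higher with dexamethasone (1.91, adjusted p = 0.00119). The 5 oligodendrocyte markers summed to 29.5 to 168, 40.5 to 252 and 20.4 to 117 CPM in the same order, and the 5 neuronal ones to 14.5 to 18.2, 17.8 to 22.7 and 16.9 to 25.2, where Syt1 was called higher in IFNg (log2 fold change 1.10, DESeq2 adjusted p = 1.07e-06) and the other 3 tested genes had negative fold changes. Of these, Snap25 (-0.46) and Gad1 (-1.17) were called lower with the block (adjusted p = 0.00256 and 0.00188), which also called Snap25 higher with dexamethasone (0.57, adjusted p = 0.000251). Vascular markers (4 genes) reached at most 2.53 CPM and microglial markers (6 genes, with 1 at 0 in all Dexa libraries) at most 1.40. The part of these cell types in the differences below was not tested, and in bulk RNA fewer cells of a type and less RNA per cell cannot be told apart.

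Most of these RNAs work as scaffolds or catalytic cores of particles. Rn7s1 and Rn7s2 encode 7SL RNA, the backbone of the signal recognition particle (SRP), which brings ribosomes making secreted and membrane proteins to the endoplasmic reticulum. Rn7sk encodes 7SK RNA, which with Hexim1, Larp7 and Mepce holds the elongation kinase P-TEFb inactive. Rpph1 and Rmrp are the RNA components of RNase P, which trims the 5′ end of tRNA precursors, and of RNase MRP, which cuts ribosomal RNA precursors. These small RNAs are made by RNA polymerase III and carry no long poly(A) tail, so that libraries made from total RNA capture them. Malat1, a long nuclear RNA of the nuclear speckles, and Neat1, the RNA around which paraspeckles are built, are made by RNA polymerase II from neighbouring genes.

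The identity of the 7SL copies comes first because it decides which values can be read. Rn7s1 (chr12:69159295-69159594, plus strand, GRCm38) and Rn7s2 (chr12:69361182-69361481, minus strand) each are 1 exon of 300 bases, and their annotated transcripts were identical at every base.
All 270 stretches of 31 bases in Rn7s1 were also in Rn7s2, so no read inside the RNA can tell the 2 genes apart, and the split between them is an estimate of the quantification program. Their sum, called 7SL below, is the value that can be interpreted. A related gene, Rn7s6, differed more, with 85.0% identity. It still held 143 of the 270 stretches of Rn7s1 and an identical run of 171 bases, so its reads are in part divided by estimation too. Rn7s1 starts 109 bases from the coding gene Rps29, and the 2 small RNA genes annotated inside each copy were given 0 reads.

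For Rn7sk (chr9:78175303-78175633, minus strand, 331 bases) the first 300 bases are shown, with the letters GATC in capitals. In the RNA these letters read GAUC, the repeat that Hexim1 is known to contact in the first hairpin.
Rn7sk: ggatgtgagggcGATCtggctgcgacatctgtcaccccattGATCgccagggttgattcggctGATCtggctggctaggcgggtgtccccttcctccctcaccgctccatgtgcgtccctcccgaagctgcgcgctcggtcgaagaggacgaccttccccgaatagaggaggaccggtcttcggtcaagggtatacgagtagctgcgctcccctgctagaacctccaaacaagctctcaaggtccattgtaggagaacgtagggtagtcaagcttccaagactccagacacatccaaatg
GATC occurred 3 times there and reads the same on both strands. Over the first 300 bases of 131058 annotated transcripts, 58.3% held it at least once and 6.33% at least 3 times, so a match describes the letters only.

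Rmrp (chr4:43492783-43493063, minus strand) has 2 annotated entries, a ribozyme of 271 bases and a long noncoding RNA of 281 bases that contains it whole, and the reads of both entries were summed. Its ends are shown because only they tell the entries apart, with the bases outside the shorter entry in capitals (chr4:43493024-43493063 for the 5′ end and chr4:43492783-43492882 for the 3′ end).
Rmrp 5′ end: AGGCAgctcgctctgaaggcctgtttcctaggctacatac
Rmrp 3′ end: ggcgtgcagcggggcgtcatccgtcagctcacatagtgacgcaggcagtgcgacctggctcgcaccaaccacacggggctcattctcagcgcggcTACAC
On the opposite strand, 124 bases of Rmrp overlap an exon of the coding gene Ccdc107, which received 248 to 657 reads per library, at most 2.90% of the reads of Rmrp. Rpph1 (chr14:50807449-50807767, minus strand, 319 bases) shares 233 bases with an exon of Ccnb1ip1 on the same strand, to which 0 to 2 reads were assigned.

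Malat1 (chr19:5795690-5802672, minus strand) and Neat1 (chr19:5824708-5845478, minus strand) lie side by side. The long Neat1 transcript is 1 exon of 20771 bases, and the short one of 3004 bases ends at base 3172 of the long one. The 120 bases around this end (chr19:5842247-5842366) are shown because reads on the near side fit both transcripts and reads on the far side only the long one, with the bases beyond the end in capitals.
Neat1: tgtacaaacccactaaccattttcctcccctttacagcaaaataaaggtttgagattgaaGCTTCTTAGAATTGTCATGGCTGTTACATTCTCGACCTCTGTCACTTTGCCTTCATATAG

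Together the 7 genes took 12.5% ± 0.714 of the reads in Ctr, 12.6% ± 0.432 in Dexa and 9.98% ± 1.59 in IFNg (SD, n = 4, 3 and 4). Their summed share was 13.2, 11.6, 12.2 and 12.9% in Ctr replicates 1 to 4, 12.4, 13.1 and 12.4% in Dexa replicates 1, 2 and 4, and 9.70, 8.39, 12.2 and 9.66% in IFNg replicates 1 to 4. IFNg replicate 3 therefore lay within the range of Ctr, while the other IFNg libraries lay below every Ctr and Dexa library. Results that rest on this library are given with and without it. Because the reads of these same 7 genes singled it out, leaving it out strengthens a fall by construction. Those fits therefore describe the weight of this library and are no separate evidence.

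**Figure D1:**
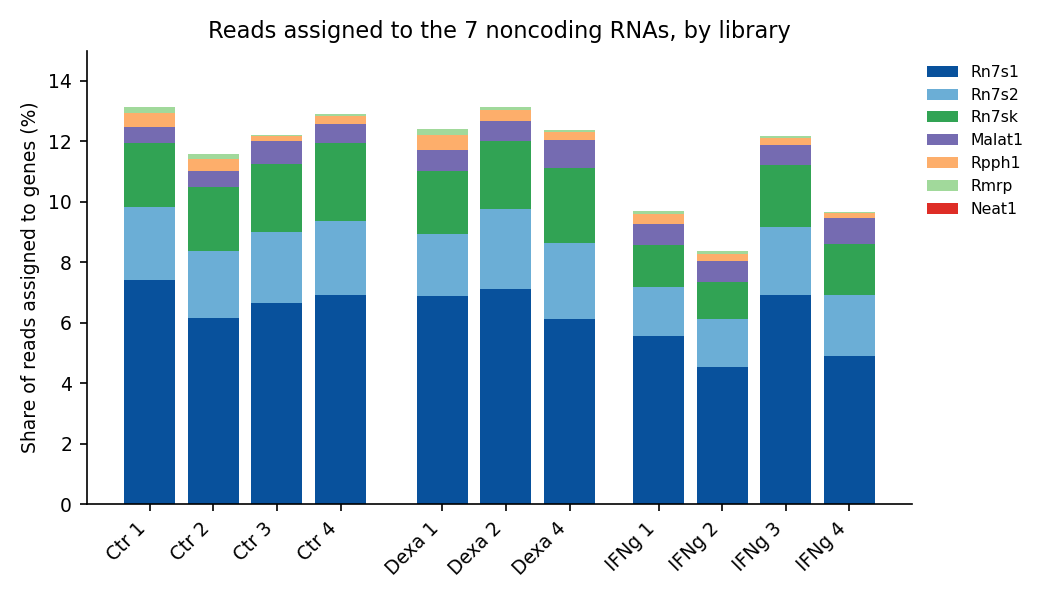
Share of the reads assigned to genes (%, vertical axis) that fell on each of the 7 noncoding RNAs, stacked, in each of the 11 complete libraries (horizontal axis). The stacks reach 11.6 to 13.2% in Ctr and Dexa, and 8.39 to 12.2% in IFNg, with 7SL RNA as the largest piece of each.

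7SL RNA made up most of this share. It took 9.84, 8.38, 9.02 and 9.36% of reads in Ctr, 8.95, 9.76 and 8.65% in Dexa, and 7.20, 6.12, 9.18 and 6.93% in IFNg, in the order of the replicate numbers. As split by the program, Rn7s1 alone ranked first of all genes in each of the 11 libraries. Rn7sk took 2.09 to 2.59% of reads in Ctr, 2.07 to 2.49% in Dexa and 1.25 to 2.04% in IFNg, which gave ranks from 2 to 4.

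Malat1 was the most sequenced long RNA of the set, with 0.528 to 0.741% of reads in Ctr, 0.646 to 0.919% in Dexa and 0.668 to 0.858% in IFNg (ranks 6 to 8). Rpph1 took 0.169 to 0.474%, 0.267 to 0.489% and 0.153 to 0.308% in the same order of groups (ranks 9 to 30). Rmrp took 0.0395 to 0.219%, 0.0456 to 0.192% and 0.0324 to 0.101%, and its rank moved from 18 to 369 between libraries. Neat1 took 0.000472 to 0.000830% in Ctr, 0.000557 to 0.00104% in Dexa and 0.00169 to 0.00233% in IFNg, which rests on 107 to 763 reads per library.

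Levels of different genes were compared per length, as TPM (reads per effective length, scaled to the same sum in every library). With both copies of 7SL summed, the order of mean levels was 7SL, Rn7sk, Rpph1, Rmrp, Malat1 and Neat1 in every group. In Ctr they were 529990 TPM ± 16329 (SD, n = 4) for 7SL, 104108 ± 11929 for Rn7sk, 16443 ± 6319 for Rpph1, 8475 ± 5590 for Rmrp, 655 ± 196 for Malat1 and 0.809 ± 0.235 for Neat1. The ranges of Rpph1 and Rmrp overlapped in Ctr, while all other neighbours in this order lay apart within their group.

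By TPM the 7 genes summed to 64.0 to 67.5% of the total in Ctr, 64.8 to 67.5% in Dexa and 54.8 to 64.6% in IFNg. TPM of RNAs this short depends on the effective length, the number of positions where a sequenced fragment fits, which was 102 to 108 for the 300 bases of 7SL. Divided by the annotated length in its place, the order was the same, with Rpph1 and Rmrp overlapping in Ctr and Rmrp and Malat1 in IFNg.

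**Figure D2:**
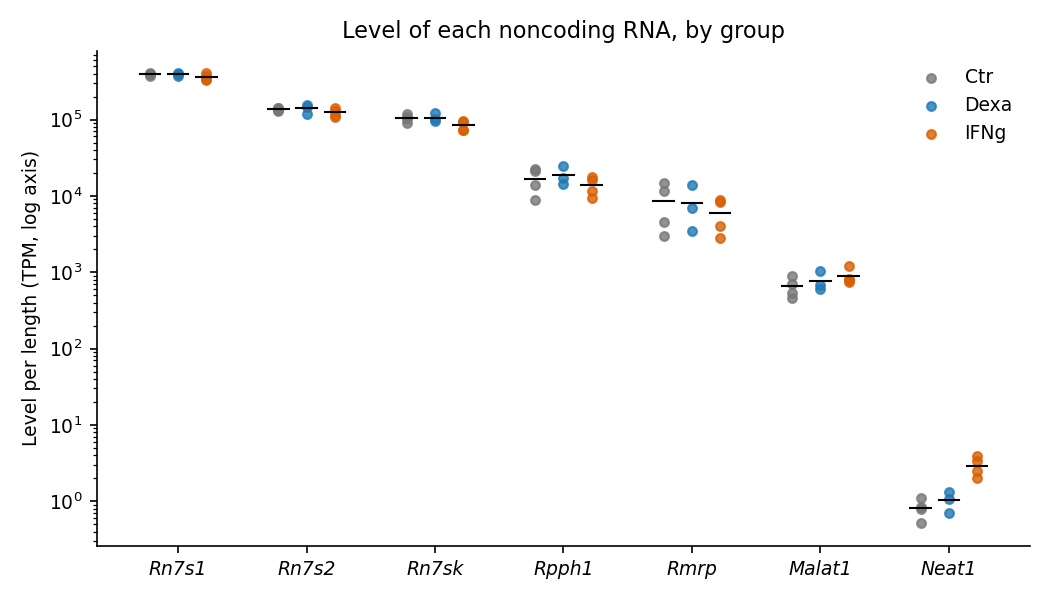
Level per length (TPM, log axis) of each noncoding RNA (horizontal axis) in Ctr, Dexa and IFNg, with 1 point per library and a black line at each mean. The identical copies Rn7s1 and Rn7s2 are drawn as the program split them, Ctr means run from 393021 TPM for Rn7s1 to 0.809 TPM for Neat1, and Neat1 is the gene whose IFNg points all lie above its Ctr points.

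Among neighbours in this order, Malat1 and Neat1 had the largest ratio of mean levels in every group (809 in Ctr, 753 in Dexa and 303 in IFNg). Taken within each library and then averaged, the ratio was 885 in Ctr (range 495 to 1377, n = 4), 863 in Dexa (455 to 1492, n = 3) and 311 in IFNg (245 to 377, n = 4). Averaged in the same way, Rpph1 had 2.32 times the TPM of Rmrp in Ctr, 2.76 times in Dexa and 2.54 times in IFNg. The ranges of this ratio overlapped between the groups.

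IFN-γ treatment was compared with Ctr in a DESeq2 fit over all 17918 genes. Neat1 was the 1 gene of the 7 called at an adjusted p under 0.05, where 12.8% of all genes were called and 8.02% were called higher. The quasi-likelihood test of edgeR, which called 8.49% of genes, also called Neat1 alone. The replicate numbers were taken to pair the libraries, and with the number as a block DESeq2 called 5 of the 7 (29.2% of genes) and edgeR called 3 (31.6% of genes).

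Neat1 had 269, 268, 214 and 159 normalized counts in Ctr, and 575, 720, 695 and 793 in IFNg. Every IFNg library lay above every Ctr library, as was so in either direction for 14.3% of genes. The log2 fold change was 1.61 (SE 0.233, 95% interval 1.16 to 2.07, adjusted p = 1.87e-10), a 3.06-fold higher level, and edgeR gave an adjusted p of 0.000885. Within replicate numbers 1, 2, 3 and 4 the IFNg library lay 1.10, 1.43, 1.70 and 2.32 above the Ctr library on the log2 scale. Neat1 was therefore higher in 4 of 4 pairs, and its fold change stayed between 1.48 and 1.70 on the log2 scale when any library was left out.

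Both Neat1 transcripts were higher in IFNg. The long transcript had 125 ± 31.7 normalized counts in Ctr and 374 ± 9.49 in IFNg (SD, n = 4 each), and the short one had 101 ± 21.6 and 313 ± 79.4. The long transcript held 58.5, 54.3, 50.8 and 56.3% of the reads of Neat1 in Ctr and 63.8, 53.5, 52.6 and 47.7% in IFNg. These shares overlapped, with a difference of -0.56 percentage points (exact two-sided permutation test, p = 0.914, adjusted p = 1.0 over 6 tests of shares within genes, of which the smallest possible p is 0.0286). Counted per length, the long transcript made up 9.84 to 18.4% of Neat1 over the 11 libraries. The division rests on few reads per library, and where the transcripts overlap it is the estimate of the quantification program. A further transcript, Neat1-204, was listed at 0 in each library.

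**Figure D3:**
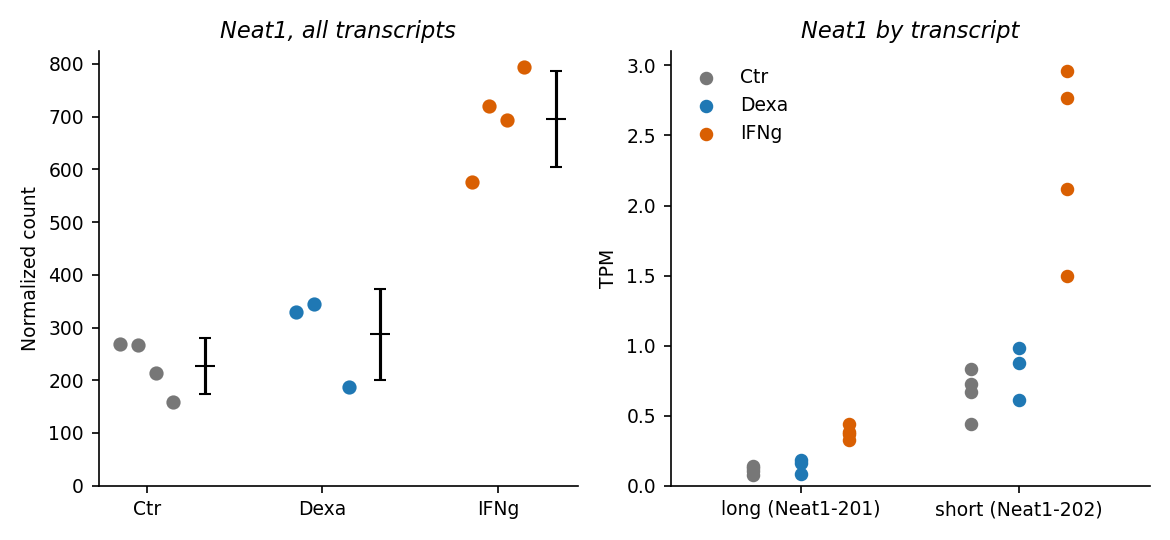
Left, normalized counts of Neat1 (vertical axis) per library in Ctr, Dexa and IFNg, with a bar at the mean ± SD. Right, TPM of the long and the short Neat1 transcript per library, where both transcripts have their IFNg points above their Ctr points and the short one has the higher TPM in every group.

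Rn7sk had 711857, 677199, 724705 and 871297 normalized counts in Ctr, and 471292, 417564, 707192 and 572226 in IFNg. IFNg replicate 3 fell inside the range of Ctr and the other IFNg libraries below it. The log2 fold change was -0.46 (SE 0.175, interval -0.80 to -0.12), which was not called (DESeq2 adjusted p = 0.0609). It was called with the replicate block (adjusted p = 4.08e-05 in DESeq2 and 0.00686 in edgeR), with total reads in place of DESeq2's size factors (-0.51, adjusted p = 0.0203) and without IFNg replicate 3 (-0.61, adjusted p = 0.00084). Rn7sk was not called with any other library left out (DESeq2 adjusted p of 0.0679 to 0.25). Within numbers 1 to 4 the differences were -0.59, -0.70, -0.04 and -0.61 on the log2 scale. Rn7sk and Neat1 were the genes of the 7 with 1 sign in all 4 numbers, which 44.6% of all genes showed.

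7SL RNA, with both copies summed, gave a log2 fold change of -0.27 (SE 0.144, interval -0.55 to 0.01, DESeq2 adjusted p = 0.248). Blocked by replicate number, the sum reached an adjusted p of 0.0313 (DESeq2) and 0.0801 (edgeR), and without IFNg replicate 3 the fold change was -0.41 (DESeq2 adjusted p = 0.0041). Taken singly, Rn7s1 had a log2 fold change of -0.27 (interval -0.57 to 0.04, adjusted p = 0.316, with the block 0.0403 in DESeq2 and 0.0913 in edgeR). For Rn7s2 it was -0.29 (interval -0.58 to -0.00019, adjusted p = 0.223, with the block 0.0192 in DESeq2 and 0.0568 in edgeR). Without IFNg replicate 3 the adjusted p was 0.012 for Rn7s1 and 0.0374 for Rn7s2. With any other library left out the DESeq2 adjusted p was 0.286 to 0.658 for Rn7s1 and 0.186 to 0.536 for Rn7s2. Rn7s1 was lower in IFNg in 3 of 4 numbers, by 0.41, 0.40 and 0.47 on the log2 scale, and 0.16 higher in number 3.

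The part of Rn7s1 in 7SL ranged from 70.7 to 77.1% over the 11 libraries. It was 74.2% ± 0.816 in Ctr and 74.4% ± 2.64 in IFNg (SD, n = 4 each, exact two-sided permutation test, p = 0.8). Since the copies are identical, this value describes the quantification and not separate transcription of the 2 genes.

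Malat1 had 179629, 175561, 239553 and 209607 normalized counts in Ctr, and 239951, 222300, 231541 and 292196 in IFNg. The groups overlapped, with IFNg the higher in numbers 1, 2 and 4 (by 0.42, 0.34 and 0.48 on the log2 scale) and lower by 0.05 in number 3. The log2 fold change was 0.29 (SE 0.163, interval -0.02 to 0.61, DESeq2 adjusted p = 0.279). With the replicate block it was called (adjusted p = 0.00533 in DESeq2 and 0.0369 in edgeR). The longest Malat1 transcript, of 6983 bases, held 98.1 to 99.8% of its reads (IFNg against Ctr, exact two-sided permutation test, p = 0.657). This share was at or above 99.5% in numbers 1 and 2 and at or below 98.7% in numbers 3 and 4. Counted per length, the longest transcript made up 92.9 to 96.9% of Malat1 in numbers 1 and 2 and 73.3 to 80.1% in numbers 3 and 4. The remainder, given to shorter transcripts, is part of the TPM of Malat1 above.

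**Figure D4:**
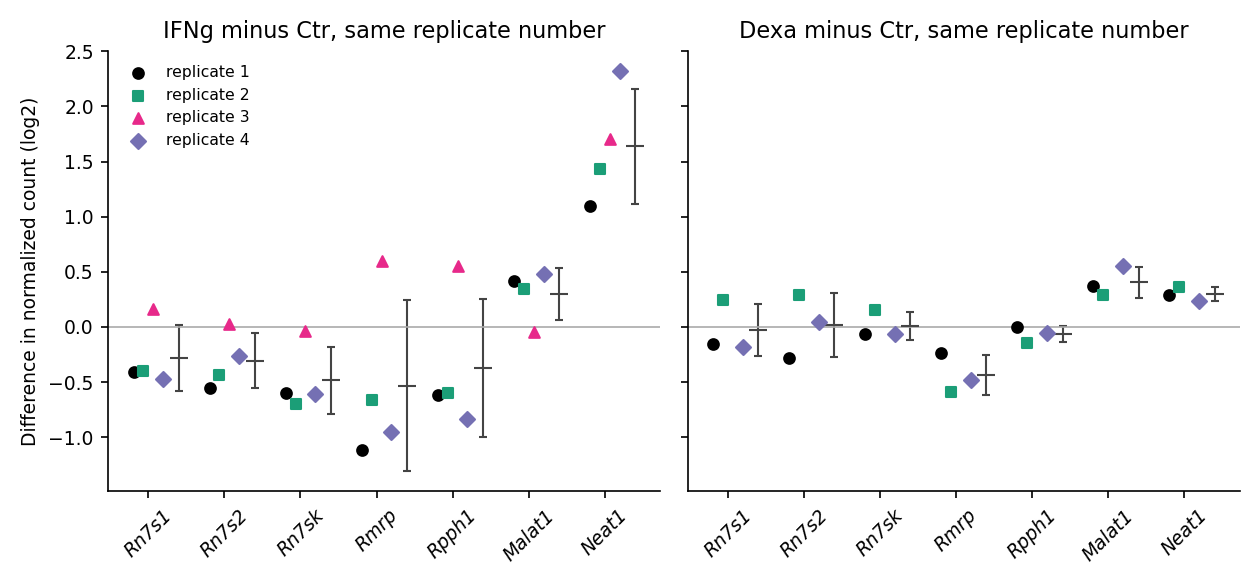
Difference between the treated and the Ctr library of the same replicate number in log2 normalized count (vertical axis) for each of the 7 genes, IFNg at left and Dexa at right, with 1 point per replicate number and a bar at the mean ± SD. Neat1 lies 1.10 to 2.32 above 0 in the 4 IFNg pairs, while Rn7sk lies 0.04 to 0.70 below 0.

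The RNAs of RNase MRP and RNase P varied widely between the libraries of each group. Rmrp had 74384, 50090, 12764 and 21309 normalized counts in Ctr, 63302, 33193 and 15300 in Dexa replicates 1, 2 and 4, and 34305, 31574, 19277 and 11017 in IFNg. Among these libraries, replicates 1 and 2 lay above replicates 3 and 4 of their group. Rpph1 had 161153, 130108, 54684 and 93037 normalized counts in Ctr, 160809, 117787 and 89626 in Dexa, and 105235, 85833, 80134 and 52139 in IFNg, with the same split among the complete libraries. In the incomplete table of Dexa replicate 3, Rpph1 took 1.06% of the reads in the genes listed whole, above Dexa replicate 2 (0.874%) and below replicate 1 (1.20%), so the split did not hold for Rpph1 in Dexa.

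The spread within groups was 0.989 on the log2 scale for Rmrp and 0.535 for Rpph1 (pooled SD). Of 6462 genes with a mean of at least 1000 counts, 1.78% had a larger spread than Rmrp and 8.64% than Rpph1, and the median spread was 0.167. Rn7s1, Rn7s2, Rn7sk and Malat1 had spreads of 0.198 to 0.237, near that median, and Neat1 had 0.350. The titles of replicates 3 and 4 begin alike in the labels, and what that marks is not stated. Mitochondrial ribosomal RNA took 1.32 to 1.78% of reads in replicates 1 and 2 and 2.23 to 3.29% in replicates 3 and 4, and its part in the split was not tested.

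**Figure D5:**
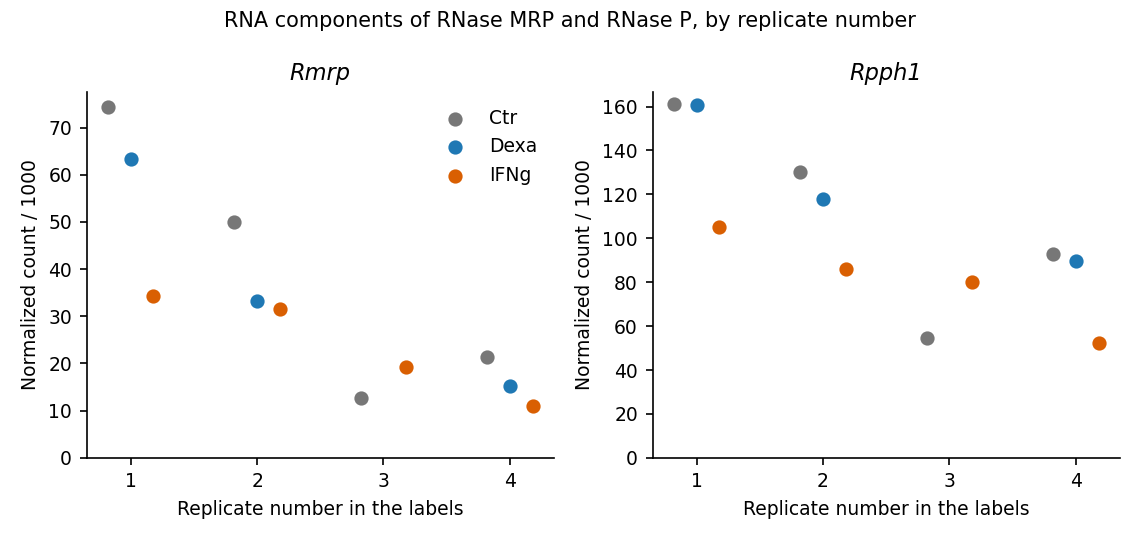
Normalized counts (divided by 1000, vertical axis) of Rmrp at left and Rpph1 at right by replicate number (horizontal axis), with 1 point per library, colours for the groups and Dexa replicate 3 absent. Over the libraries drawn, both genes lie higher in replicates 1 and 2 than in 3 and 4 of their group, from 11017 to 74384 counts for Rmrp.

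Neither RNA was called with IFN-γ. Rmrp had a log2 fold change of -0.72 (SE 0.572, interval -1.84 to 0.40, DESeq2 adjusted p = 0.513, with the block 0.197 in DESeq2 and 0.0964 in edgeR). Rpph1 had -0.44 (SE 0.339, interval -1.11 to 0.22, adjusted p = 0.496, with the block 0.382 and 0.133). Within numbers 1, 2 and 4 Rmrp was lower in IFNg by 1.12, 0.67 and 0.95 on the log2 scale, and 0.59 higher in number 3. Rpph1 was lower by 0.61, 0.60 and 0.84 in the same numbers and 0.55 higher in number 3. Both values leaned on single Ctr libraries: without Ctr replicate 1 they were -0.22 for Rmrp and -0.20 for Rpph1, and without Ctr replicate 3 they were -1.02 and -0.67.

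Dexamethasone was compared with Ctr in the same fit, which shares the Ctr libraries with the IFN-γ comparison. No gene of the 7 was called by DESeq2 or edgeR, and 0 of the 7 had an unadjusted p under 0.05 in either, where DESeq2 called 0.547% of all genes (0.508% higher) and edgeR 0.123%. With the replicate block DESeq2 called 1 of the 7, where 2.57% of genes were called, and edgeR called 0, where 1.56% were called and 1 of the 7 had an unadjusted p under 0.05.

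The gene called with the block was Malat1. It had 231625, 214218 and 308264 normalized counts in Dexa replicates 1, 2 and 4, of which 214218 and 231625 lay inside the range of Ctr. The log2 fold change was 0.32 (SE 0.176, interval -0.02 to 0.67, DESeq2 adjusted p = 1.0), and with the block it was 0.34 (adjusted p = 0.028 in DESeq2 and 0.195 in edgeR). In numbers 1, 2 and 4 Malat1 was higher in Dexa by 0.37, 0.29 and 0.56 on the log2 scale. Without Dexa replicate 4 the unblocked fold change was 0.15.

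Neat1 had 329, 344 and 187 normalized counts in Dexa. These overlapped Ctr, and the log2 fold change was 0.34 (interval -0.16 to 0.84, adjusted p = 1.0), with Dexa 0.29, 0.36 and 0.24 higher on the log2 scale in the 3 numbers. It was 0.19 without Dexa replicate 2, 0.21 without Ctr replicate 4 and 0.57 without Dexa replicate 4. The long transcript held 50.8 to 60.4% of its reads, a difference of -0.27 percentage points from Ctr (exact two-sided permutation test, p = 1.0).

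The 7SL copies and Rn7sk lay close to 0 with dexamethasone. Rn7s1 had a log2 fold change of -0.01 (interval -0.34 to 0.32), Rn7s2 of 0.03 (-0.28 to 0.35) and Rn7sk of 0.02 (-0.35 to 0.39). The intervals were wider for Rpph1 (0.16, -0.56 to 0.88) and Rmrp (-0.09, -1.30 to 1.12), so that changes of either sign within them stayed possible. DESeq2 gave an adjusted p of 1.0 for each. These values include Ctr replicate 3, which has no complete Dexa partner. Within numbers 1, 2 and 4 Rmrp was lower in Dexa by 0.23, 0.59 and 0.48 on the log2 scale, and Rpph1 was lower in all 3 as well, by 0.07 on average. With the block the fold changes were -0.26 for Rmrp (DESeq2 adjusted p = 0.973) and 0.08 for Rpph1 (adjusted p = 0.997), and without Ctr replicate 3 they were -0.38 and -0.06. Rmrp and Rpph1 (lower) and Malat1 and Neat1 (higher) kept 1 sign in the 3 numbers, which 44.0% of all genes did, and for 0 of the 7 did the groups lie apart, against 4.26% of all genes.

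The incomplete table of Dexa replicate 3 listed 3 of the 7 genes. Over the genes it lists whole, Rn7s1 took 17.1% of reads there against 15.7 to 17.6% in the other Dexa libraries, Rn7s2 6.60% against 5.07 to 6.47%, and Rpph1 1.06% against 0.683 to 1.20%. With this library added, DESeq2 called none of the 3 in either comparison (unadjusted p under 0.05 for 1 of the 3 with IFN-γ and for 0 with dexamethasone), where it called 13.2% of 6319 genes with IFN-γ and 0.364% with dexamethasone. With the block added too, Rn7s1 (adjusted p = 0.0457) and Rn7s2 (adjusted p = 0.0159) were called lower in IFNg, where 31.3% of the genes were called. With dexamethasone that fit called 0 of the 3, with 0 at an unadjusted p under 0.05, and 3.59% of the genes.

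The proteins that bind these RNAs were read from the same fit, as lists drawn up by their known particle. Over all genes tested, 22.4% had an unadjusted p under 0.05 with IFN-γ and 3.58% with dexamethasone in DESeq2, and the called shares given above (12.8% and 0.547%, or 29.2% and 2.57% with the block) are the background of every count below. Of the 10 tested SRP proteins and receptor subunits, 0 were called with IFN-γ by DESeq2 or edgeR, and 0 had an unadjusted p under 0.05 in DESeq2 (median log2 fold change -0.01, against -0.02 over all genes). Srp72, with the most reads of the list, had 3607 ± 251 normalized counts in Ctr and 3782 ± 289 in IFNg (SD, n = 4 each). Of the 7 genes of the 7SK particle and P-TEFb, 0 were called by either tool and 0 had an unadjusted p under 0.05 in DESeq2 (median -0.09), and Ccnt2, a cyclin of P-TEFb, had the most reads, with 2734 ± 401 and 2415 ± 151. With the block Larp7 was called higher (adjusted p = 0.044) and Hexim1 lower (adjusted p = 0.0437) in DESeq2.

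Of the 11 protein subunits of RNase P and RNase MRP, 8 had a negative fold change with IFN-γ and 9 with dexamethasone. With IFN-γ 2 had an unadjusted p under 0.05 in DESeq2 and 1 was called, Pop5. It was lower in IFNg (log2 fold change -0.26, adjusted p = 0.0129 in DESeq2, 0.00997 in DESeq2 with the block and 0.0718 in edgeR). The median of this list was -0.17 with IFN-γ, against -0.02 over all genes, and -0.05 with dexamethasone, against -0.01. The gene with the most reads was Pop1, with 1889 ± 90.4 normalized counts in Ctr and 2055 ± 102 in IFNg. Of 28 genes of the RNA polymerase III machinery 2 were called higher, the polymerase subunits Crcp (0.28, adjusted p = 0.0214) and Polr3c (0.20, adjusted p = 0.0257), which edgeR did not call (adjusted p = 0.116 and 0.155). Gtf3c1, with the most reads of this list, had 7237 ± 178 and 6948 ± 238 normalized counts, and the list's median was -0.02. Of the 28 genes, 15 had a negative fold change with IFN-γ and 23 with dexamethasone. With the block DESeq2 called 2 of the list higher with IFN-γ and 1 lower, Snapc5 (-0.33 in the main fit, blocked adjusted p = 0.0293).

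Of 10 paraspeckle proteins 1 was called, Nono, which was 0.17 higher in IFNg on the log2 scale (adjusted p = 0.0409 in DESeq2 and 0.225 in edgeR), and the list's median was 0.05. Hnrnpk had the most reads, with 27289 ± 1919 normalized counts in Ctr and 29560 ± 1906 in IFNg. With the block DESeq2 called 2 of the 10 higher and 1 lower with IFN-γ. Of 8 nuclear speckle proteins 0 were called by either tool and 1 had an unadjusted p under 0.05 in DESeq2 (median 0.03), and Son, with the most reads, had 22658 ± 1322 and 22745 ± 640. With the block DESeq2 called 1 of the 8 lower with IFN-γ, Srsf5 (-0.16 in the main fit, blocked adjusted p = 0.0386). With dexamethasone 0 genes of these 6 lists were called by DESeq2 or edgeR, and 3 had an unadjusted p under 0.05 in DESeq2, with medians from -0.06 to 0.04.

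Other noncoding RNAs of the same kinds were read beside the 7. Of 9 tested small RNAs of particles 0 were called with either treatment by DESeq2 or edgeR (unadjusted p under 0.05 for 1 with IFN-γ and 0 with dexamethasone in DESeq2). With the block DESeq2 called 1 of them lower with IFN-γ, Scarna2 (-0.45 in the main fit, blocked adjusted p = 0.00435), and 0 with dexamethasone. With IFN-γ 7 of 9 had a negative fold change (median -0.25, against -0.02 over all genes). Rnu3b1 and Rnu3b3 each had more than 1 entry, with values alike between them (-0.254 for both and -1.35 for both). All of these were among the 7, which therefore do not stand for 7 separate RNAs, and the median is the value of Rnu3b3. With dexamethasone 8 of 9 had a negative fold change (median -0.24, against -0.01 over all genes), with these entries again among them. Rn7s6 had the most reads, with 17846 ± 5828 normalized counts in Ctr and 18246 ± 8308 in IFNg. As it shares sequence with 7SL, these counts rest in part on how the program divided the reads. Of 10 other long noncoding RNAs 0 were called by either tool (unadjusted p under 0.05 for 0 with IFN-γ and 1 with dexamethasone in DESeq2), and Xist had the most reads, with 11732 normalized counts on average. With the block DESeq2 called 4 of them with IFN-γ, 2 higher and 2 lower, and 1 higher with dexamethasone. Of the residual ribosomal RNAs, 2 were tested and 0 were called or had an unadjusted p under 0.05 with either treatment in DESeq2, and mt-Rnr2 had the most reads, with 589732 normalized counts on average.

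Profiles over the 11 libraries were compared by the root mean square difference in log2 CPM, each profile centred on its own mean, over 12211 genes. The genes most like Neat1 were Lancl3 (0.166) and Rnd3 (0.202), and those most like Rn7sk were Higd2a (0.0935) and Dvl3 (0.100). With the copies taken as split, Rn7s1 lay nearest to Mgst3 (0.0882) and Creg1 (0.114), and Rn7s2 to Higd2a (0.0904) and Gatd1 (0.0976). Malat1 lay nearest to Ticam1 (0.117) and the pseudogene AC134468.1 (0.119), Rpph1 to Dpm3 (0.134) and Spry1 (0.150), and Rmrp to Chst7 (0.279) and Hist4h4 (0.284). Rmrp and Rpph1 differed from each other by 0.430, and among the 7 genes Rpph1 was the nearest to Rmrp (0.843 to 1.21 for the others). The nearest genes elsewhere were picked as the smallest differences out of 12211 genes, so they set no measure for this pair.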

How the data were processed

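Total RNA of 12 cultures was sequenced (3 groups of 4). Per the labels the authors used a strand-specific kit that removes ribosomal RNA, and their processing notes name Salmon 0.8.2, STAR and DESeq2 with mm10 and GRCm38. For every transcript the authors deposited an estimated count (NumReads, not whole) and a TPM value, both made with Salmon from the trimmed reads. Salmon divides a read that fits several transcripts between them by estimation. Transcripts matched Ensembl 96 on GRCm38, and 0 of 141862 lacked a gene. The authors' 3 tables of their own comparisons, which hold fold changes and p-values, were not used.

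Estimated counts were summed per gene and rounded. Genes that reached 10 counts in 4 or more of the 11 complete libraries were tested together with DESeq2 1.42.0 (Wald test on the group, no covariate, R 4.3.3), with Benjamini-Hochberg adjustment over 17918 genes and calls at an adjusted p under 0.05. Normalized counts are counts over DESeq2's size factors. The table of Dexa replicate 3 ends after 47855 transcripts and served for genes with all transcripts in it. Shares within genes were compared by exact permutation tests that did not use the pairing, so differences between replicate numbers count as spread in them. Tables and figures were made with Python 3.11.15, numpy 2.4.6, pandas 2.3.3, scipy 1.17.1 and matplotlib 3.10.9, and the fits were tested on simulated counts.

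Same-numbered libraries deviated together from their group means (correlations of 0.689 to 0.904 over 10 pairs, against -0.862 to 0.780 over 30 pairs of different numbers), so the numbers were taken to pair the libraries. The 0.780 was between Ctr replicate 3 and Dexa replicate 4 and lay above some same-numbered pairs, so numbers 3 and 4 were less clearly separated. No libraries of a group agreed within sampling noise (chi-square per degree of freedom 22.0 to 222). Alternatives were edgeR 4.0.16, the replicate block, total reads as size factor with and without the 7 genes, no filter, the 7SL copies summed and each library left out. The fits with Dexa replicate 3, and the sum combined with the block or without IFNg replicate 3, were added after seeing the data. Intervals are 95% and cover counting error and the spread between litters, and PCR copies were not told apart. They come from the fit without the block and make no use of the pairing. With IFN-γ the SE was 0.175 for Rn7sk and 0.163 for Malat1 without the block, and 0.106 and 0.0907 with it.

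The 7 genes and all lists were chosen with earlier results of these data known. Named are the 7 genes, from each list the genes called (at most the 4 with the smallest adjusted p) and the one with the highest mean normalized count, and for each of the 7 the 2 genes with the nearest profile of log2(CPM + 0.5) among genes with a mean of at least 100 counts. Larp7, Hexim1, Snapc5, Srsf5, Scarna2 and the cell type markers named with the block were named after their values were seen. Sequences are those of the GENCODE M21 transcripts, the same annotation as Ensembl 96, read for all 7 genes and printed for some of them, and the sequence of 7SL RNA is not reported here.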

Additional observations from a re-analysis of the deposited data

Results flagged for a closer look

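Of 20 groups of 4 libraries in which a value was checked for a library far from the others, 1 was marked, and chance marks about 1 in 20. Rn7s1 made up 75.4% of 7SL RNA in Ctr replicate 1, against 73.7 to 73.8% in the other Ctr libraries. As the 2 copies are identical, this share is the division made by the quantification program.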

How the results depend on the processing

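With IFN-γ, 1 of the 7 genes was called in the main fit, 5 with the replicate block in DESeq2, 3 with the block in edgeR, 2 with total reads as size factor, 2 with total reads without the 7 genes, and 1 to 4 when 1 library was left out, the 4 without IFNg replicate 3. Over all genes the 2302 calls became 1521 in edgeR, 5237 with the block in DESeq2 and 5659 in edgeR. With dexamethasone 0 of the 7 became 1 with the block in DESeq2, and the 98 calls over all genes became 22 in edgeR, 460 with the block in DESeq2, 279 in edgeR and 60 to 112 with 1 library left out, the 60 without Dexa replicate 2. The replicate block changed no other call of the 7 than those in the report. Neat1 with IFN-γ stayed called under each alternative that holds it, and the fits with Dexa replicate 3 do not.
Values with dexamethasone that were near 0 changed sign. The log2 fold change of Rn7s1 was 0.047 and 0.044 with the block in DESeq2 and edgeR, 0.056 and 0.054 for the sum of both copies, and -0.067 to 0.048 with 1 library left out. The same range was -0.034 to 0.14 for Rn7s2, -0.056 to 0.10 for Rn7sk, -0.71 to 0.41 for Rmrp and -0.082 to 0.41 for Rpph1. Malat1 (0.15 to 0.42) and Neat1 (0.19 to 0.57) kept their sign. Differences in shares within genes, in percentage points with 1 library left out, ran from -3.69 to 1.68 (Neat1), -0.201 to 0.356 (Malat1) and -0.628 to 1.44 (Rn7s1) with IFN-γ, and from -3.09 to 1.67 (Neat1) and -2.20 to 0.918 (Rn7s1) with dexamethasone. The cause of these changes was not tested. Neat1 rests on 107 to 763 reads per library.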
